A study of Mus musculus with 12 samples.

Results

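The comparison described here set the moderate DUX4 mouse model against its ACTA1-MCM control in gastrocnemius muscle. It held 6 of the 12 mice in the series, 3 in each group, taken by the genotype and treatment in their sample labels. The control mice (1127, 1246 and 1349) were ACTA1-MCM/+. Their labels list no tamoxifen, whereas the study's overview of its models describes ACTA1-MCM/+ controls that were injected, so whether these mice had tamoxifen is not settled here. ACTA1-MCM is a transgene in which the human skeletal actin promoter drives MerCreMer, a Cre recombinase fused to mutated estrogen receptor domains, so that Cre is made in skeletal muscle and is activated by tamoxifen. The moderate mice (1236, 1308 and 1331) carried ACTA1-MCM together with FLExDUX4, a conditional human DUX4-fl transgene at the Rosa26 locus that is inverted into its expressed orientation by Cre. They received 1 intraperitoneal injection of tamoxifen at 5 mg/kg and their muscle was taken on day 9. All mice used were 13 weeks old. The groups differed in genotype and, by the labels, in tamoxifen, and what each contributes cannot be told apart. The other 6 mice were 3 FLExDUX4/+ mice (FLExD/+) and 3 mice of the severe model, which had both transgenes and 2 injections at 10 mg/kg and were also taken on day 9. They entered the same edgeR fit, and the moderate mice are set against them where stated.

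DUX4 is a homeodomain transcription factor of the early embryo that is normally silent in muscle, and its full-length form, DUX4-fl, is toxic to muscle fibers. Its misexpression causes facioscapulohumeral muscular dystrophy (FSHD). Damaged fibers are cleared by macrophages, and satellite cells, the stem cells of muscle, then divide, differentiate and fuse into new fibers that pass through embryonic and neonatal forms of the contractile proteins.

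What was measured was RNA, as an expected count per gene in each library, and levels are given as CPM, a count divided by its library size after TMM adjustment. The 6 libraries held 26871186 to 29136403 counts. A level of 3 counts, taken as the lowest that could be read, was 0.142 to 0.155 CPM in the controls and 0.0947 to 0.103 CPM in the moderate mice. The TMM factors were 0.706 to 0.724 in the controls and 1.06 to 1.13 in the moderate mice, so the scaling itself differed between groups. With it, the median log2 fold change (log2FC) of all genes was 0.04, whereas library size alone gave 0.65 and limma on log2(TPM + 1) gave 0.29. Directions and calls that changed with the scaling are given with many of the genes and lists, but not with all. Xist was at 2672 to 6836 counts and the Y-linked Ddx3y at 0 in all 6 mice. These are bulk libraries, in which fewer cells of a type and less RNA per cell cannot be told apart.

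Of 16679 genes tested with edgeR, 4072 (24.4%) passed as higher in moderate muscle and 2830 (17.0%) passed as lower, with a threshold of 0.05 on the adjusted p and of 0.5 on the size of the log2FC. This is 41.4% of all genes tested, and the 3 moderate mice did not overlap with the 3 controls at 61.0% of genes. Under library size alone the calls were 8764 higher and 752 lower. A stricter rule, a fold of 1.4 with a Bayes factor of 10 in all 9 pairs of a moderate and a control mouse, gave 1333 higher and 1051 lower, and list counts under it are given as those of all 9 pairs. Genes of 37 lists, which name pathways, complexes and cell types, were then followed in turn. A count of members of a gene list is read against these shares, and a list's median against the 0.04 of all genes. An exact permutation test of 3 mice against 3 cannot give a two-sided p below 0.1, so each p given is the Benjamini-Hochberg adjusted p of edgeR, with the standard error (SE) of the log2FC.

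**Figure D1:**
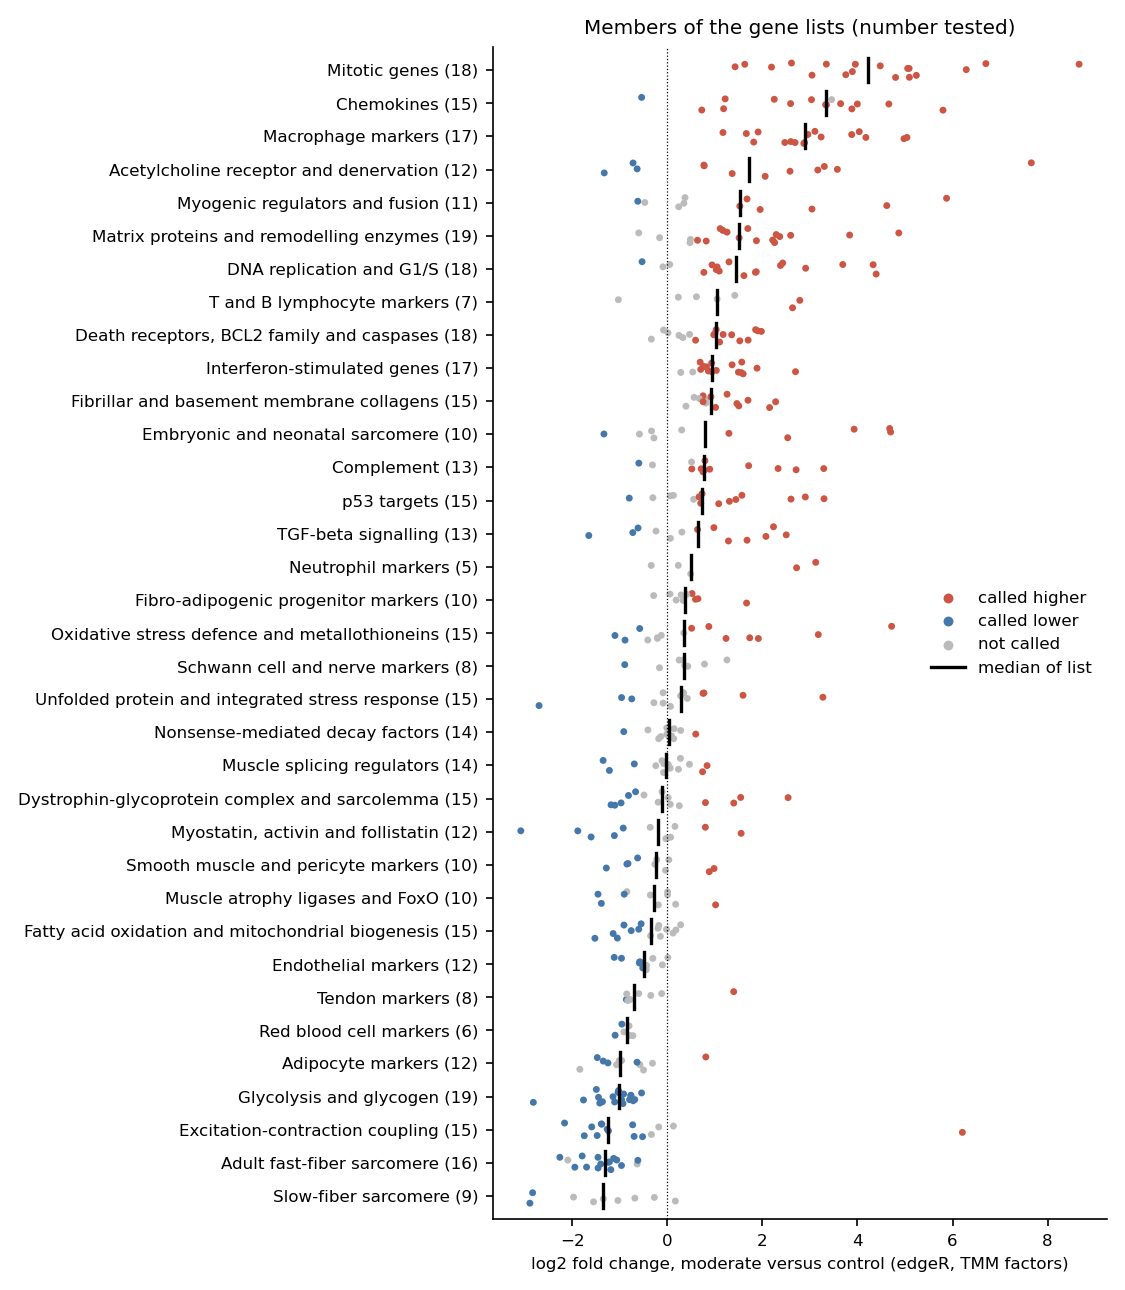
Log2 fold changes, moderate versus control, of the tested members of each gene list, 1 point per gene, with red and blue for genes called higher and lower, grey for genes not called, and a black bar at the list median. Lists are ordered by their medians, from the slow-fiber sarcomere at -1.34 to the mitotic genes at 4.22.

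The DUX4 targets used to follow the transgene were both higher. Wfdc3, a whey acidic protein family member that DUX4-fl activates in mouse muscle, stood at 0.155, 0.385 and 0.142 CPM in the controls and at 91.8, 69.1 and 68.0 CPM in the moderate mice. The groups were far apart, and all 3 controls lay near the level of 3 counts. The log2FC was 8.35 (SE 0.39, adjusted p = 1.56e-08). Trim36, a ubiquitin ligase, was at 0.719 ± 0.132 CPM in the controls and 1.56 ± 0.188 CPM in the moderate mice (SD, n = 3; log2FC 1.11, SE 0.26, adjusted p = 0.0024), and was not called with limma on log2(TPM + 1) (0.32). Wfdc3 was at 87.5 CPM in the severe model, and that level was not called different from the moderate one (log2FC severe versus moderate 0.20, adjusted p = 0.48). Trim36 was at 2.32 CPM in the severe model and was called higher there than in the moderate mice (log2FC severe versus moderate 0.58, adjusted p = 0.0366). The mouse's own Dux had 0 counts in all 6 libraries. Of 20 genes of the mouse 2-cell embryo stage, which Dux activates there, 19 were measured, 2 were tested, and neither was called.

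Esr1, the estrogen receptor gene whose domains are part of MerCreMer, was at 715, 422 and 819 CPM in the controls and at 95.9, 113 and 124 CPM in the moderate mice. Both groups carry the MerCreMer transgene, and the FLExD/+ mice, which lack it, were at 31.7 CPM. The severe mice carry it too, yet were at 36.1 CPM. They were called lower than the moderate mice (log2FC severe versus moderate -1.62, adjusted p = 3.34e-05). What sets the level of these reads was not tested. The 3 moderate mice lay below all controls and above the FLExD/+ mean (log2FC against the controls -2.56, SE 0.21, adjusted p = 4.19e-07; against FLExD/+ mice 1.80). Reads of the transgene and of Esr1 itself were not separated in these counts. Gt(ROSA)26Sor, the noncoding gene at the locus that carries FLExDUX4, was called at 0.53 (SE 0.15, adjusted p = 0.00852), but at -0.35 against FLExD/+ mice, and the call was lost without control mouse 1246 (0.44), moderate mouse 1236 (0.47) or moderate mouse 1331 (0.46).

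The largest fitted changes belonged to genes at or near 0 counts in control muscle, for which the fold has no exact value. Among the 10 higher genes with the largest fitted change, a moderate mean of at least 50 counts and no overlap between groups, 9 had 0 counts in all 3 controls and the other, Aadac, had 1 control above 0. 4921504E06Rik, a gene without a described function, was at 11, 10.8 and 10.5 CPM in the moderate mice, which is at least 73.2-fold above 3 counts in the controls. Cyp2j12, a cytochrome P450 enzyme, was at 9.84, 6.86 and 11.6 CPM (at least 63.9-fold). Pth, parathyroid hormone, was at 6.50, 7.86 and 9.20 CPM (at least 53.3-fold). That no control reached these levels follows from how the genes were chosen. Aadac, an arylacetamide deacetylase of liver, was at 19.5, 14.9 and 15.1 CPM, with 1 count in the 3 controls together (ratio 1013, with a 95% interval from counting error of 182 to 40037). The remaining genes reached group means of 2.84 to 4.19 CPM. They were Ctsj, a placental cathepsin, Klrb1f, a killer cell lectin-like receptor, Pls1, an actin-bundling plastin, Anxa10, an annexin, Cck, the hormone cholecystokinin, and Iltifb, a relative of interleukin 22. Their bounds ran from at least 19.3-fold for Iltifb to at least 28.5-fold for Ctsj. Wfdc3, which had counts in every control, was 335-fold higher by its group means, with a mean of only 4.67 counts in the controls. A lower bound can lie far below the true fold, so this ratio and the bounds do not rank the genes.

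**Figure D2:**
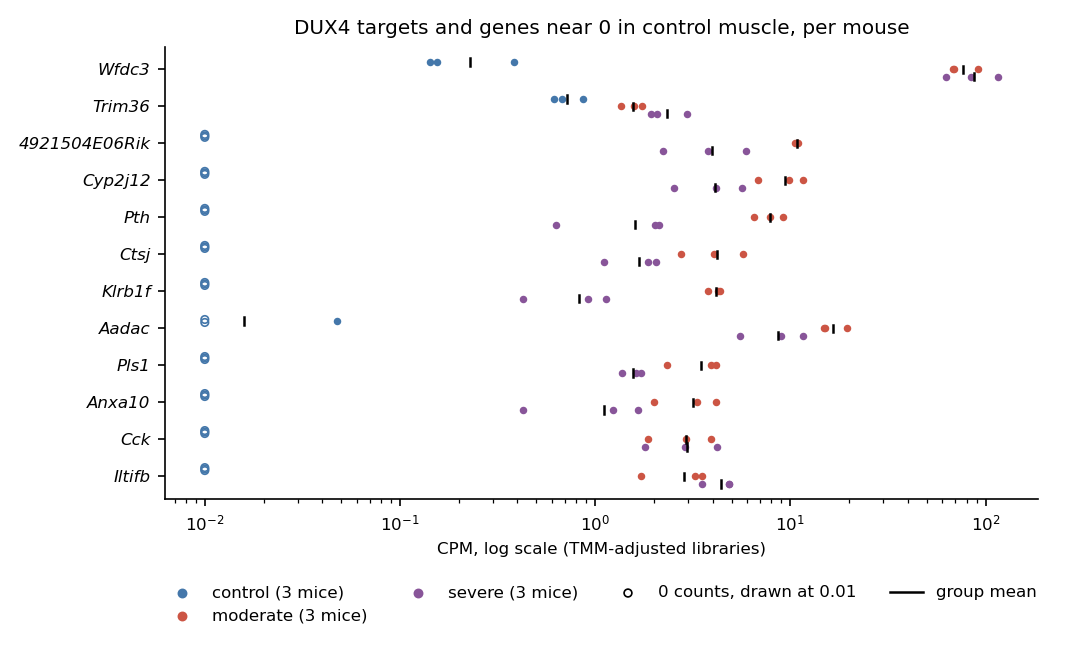
CPM of the DUX4 targets and of the 10 genes with the largest fitted change, on a log axis, in each control, moderate and severe mouse, with group means as black bars and 0 counts drawn as open circles at 0.01. Of these genes, 9 have open circles for every control mouse, and Wfdc3 rises from a mean of 0.228 to 76.3 CPM.

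The sequences before the start of these genes were searched on both strands for the DUX4 motif, since DUX4 binds such sites. RefSeq (GRCm38.p6) held a promoter for 8 of the 9 genes with 0 counts in the controls. None of these, and not the Wfdc3 promoter, held the exact motif in the 250 bases before the start, against 0.1% of all 32851 promoters. The RefSeq start of Wfdc3 lies inside the gene as GENCODE M21 annotates it (chr2:164731180-164745931, minus strand). The bases before the GENCODE start were not searched. A match with at most 1 mismatch, which 2.13% of all promoters hold, was present for Cyp2j12 and Ctsj, at 153 and 104 bases before the start. The 250 bases are shown for these genes, with the near match in capitals, and for Wfdc3 and Pth, which had none. A match describes letters only and was not tested as a binding site.
Cyp2j12, chr4:96141153-96141402, minus strand: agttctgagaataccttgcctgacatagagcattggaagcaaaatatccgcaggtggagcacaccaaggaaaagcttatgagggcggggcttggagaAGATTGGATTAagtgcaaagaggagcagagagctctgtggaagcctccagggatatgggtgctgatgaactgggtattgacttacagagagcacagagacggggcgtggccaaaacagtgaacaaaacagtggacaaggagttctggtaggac
Ctsj, chr13:61005926-61006175, minus strand: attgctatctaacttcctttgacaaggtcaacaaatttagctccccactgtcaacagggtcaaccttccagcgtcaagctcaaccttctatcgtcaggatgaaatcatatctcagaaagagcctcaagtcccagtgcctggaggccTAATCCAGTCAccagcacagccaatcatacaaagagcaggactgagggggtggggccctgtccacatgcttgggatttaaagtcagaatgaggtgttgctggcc
Wfdc3, chr2:164743268-164743517, minus strand: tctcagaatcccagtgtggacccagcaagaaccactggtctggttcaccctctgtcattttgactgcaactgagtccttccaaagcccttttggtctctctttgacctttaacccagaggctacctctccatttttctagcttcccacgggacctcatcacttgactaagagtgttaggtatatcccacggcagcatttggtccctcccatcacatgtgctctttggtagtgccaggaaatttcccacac
Pth, chr7:113388574-113388823, minus strand: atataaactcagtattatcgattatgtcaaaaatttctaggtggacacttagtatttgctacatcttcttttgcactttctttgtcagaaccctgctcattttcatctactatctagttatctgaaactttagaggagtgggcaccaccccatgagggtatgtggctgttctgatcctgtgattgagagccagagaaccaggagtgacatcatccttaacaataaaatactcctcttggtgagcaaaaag

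On the lower side, the 10 genes with the largest change were Pla2g5, Fgfbp1, Gm11752, Ppp1r1a, Cth, Gdap1, Rhpn2, Col9a1, Ankrd23 and Stab2, with log2FC from -5.48 to -3.35. Pla2g5 is a secreted phospholipase A2, Cth makes cysteine from cystathionine and Gdap1 is a mitochondrial fission protein. Fgfbp1, a carrier protein that releases fibroblast growth factors from matrix, was at 11.7, 13.8 and 10.3 CPM in the controls and at 0.126, 0.379 and 0.326 CPM in the moderate mice. Ankrd23, an ankyrin repeat protein that binds titin in the sarcomere, was the most abundant of them, at 2224, 2352 and 2843 CPM against 250, 254 and 218 CPM (log2FC -3.36, SE 0.17, adjusted p = 5.1e-09). These genes, too, were chosen for groups that do not overlap. Ppp1r1a, an inhibitor of protein phosphatase 1, fell by 3.68 on the log2 scale (SE 0.24, adjusted p = 1.34e-07). Stab2, a scavenger receptor of endothelium, fell from 8.76 ± 2.42 to 0.862 ± 0.337 CPM (SD, n = 3). Without moderate mouse 1331 the change of Col9a1, a cartilage collagen, went from -3.37 to -4.26.

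Measured by CPM gained, the leading genes were Ccng1, a cyclin G that p53 activates, and H19, an imprinted noncoding RNA of fetal tissue. Ccng1 was at 1223, 1114 and 1178 CPM in the controls and at 3072, 2895 and 3598 CPM in the moderate mice (log2FC 1.44, SE 0.21, adjusted p = 4.45e-05). H19 was at 561, 785 and 408 CPM against 2428, 2372 and 2326 CPM (log2FC 2.02, SE 0.37, adjusted p = 0.000681). Both genes separated the groups without overlap. Sord, sorbitol dehydrogenase, gained from 69.4 ± 10.2 to 748 ± 96.4 CPM (log2FC 3.43, SE 0.25, adjusted p = 2.3e-07). Aqp4, the water channel of the fast-fiber membrane, went from 72.4 ± 16.8 to 514 ± 3.61 CPM, Exoc4 of the exocyst from 103 ± 9.57 to 593 ± 56.9 CPM, and Trak2, a mitochondrial transport adaptor, from 114 ± 13.8 to 543 ± 42.0 CPM (SD, n = 3). Eef1a1, a translation factor, and Flnc, a filamin of the Z-disc, also gained, with log2FC of 1.25 and 1.03.

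The adult contractile program was lower. Of 16 adult fast-fiber sarcomere genes, 14 were called lower and none higher, with a median log2FC of -1.32, and their share of all counts was 22.7% ± 3.61 in the controls and 14.6% ± 1.04 in the moderate mice (SD, n = 3). Library size alone called 11 of these genes lower and none higher (median -0.71). Actn3, the fast-fiber alpha-actinin, was at 8914, 6392 and 9039 CPM against 1564, 1467 and 2060 CPM (log2FC -2.26, SE 0.22, adjusted p = 1.44e-06). Myh4, the fastest myosin heavy chain and the most abundant of its family, was at 86693, 58766 and 92481 CPM against 30420, 31621 and 38812 CPM (log2FC -1.24, SE 0.30, adjusted p = 0.00288), and was not called with limma on log2(TPM + 1) (-0.67). The groups did not overlap for either gene. Mybpc2, fast myosin-binding protein C, changed by -1.94, Tpm1, a tropomyosin, by -1.79, and Acta1, skeletal actin, by -1.70. The muscle identity of the libraries was clear in both groups, with Acta1 at 6339 ± 351 CPM and Ckm, muscle creatine kinase, at 8212 ± 553 CPM in the moderate mice. The 2 fast-fiber genes not called included Myh2, at 1425, 3909 and 1472 CPM against 273, 1099 and 225 CPM (log2FC -2.09, SE 0.84, adjusted p = 0.0613), and Myh1 at -0.63 (SE 0.33, adjusted p = 0.127). Both were called lower without moderate mouse 1308 (-3.19 and -0.92).

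Slow-fiber genes varied from mouse to mouse within both groups. Of 9 tested, 2 were called lower, Myl3 and Myl2, the slow myosin light chains. Myl2 was at 161, 318 and 71.9 CPM in the controls and at 13.6, 52.7 and 11.2 CPM in the moderate mice (log2FC -2.83, SE 0.83, adjusted p = 0.0176), and Myl3 changed by -2.89 (SE 0.87, adjusted p = 0.0191). Control mouse 1246 and moderate mouse 1308 were the highest of their groups for both genes and for Myh7, the slow myosin heavy chain, at 501, 1034 and 170 CPM against 86.6, 275 and 73.4 CPM. The Myh7 groups overlapped and the gene was not called (log2FC -1.97, adjusted p = 0.0775), but it was called without moderate mouse 1308 (-2.83) or control mouse 1349 (-2.43). The calls of Myl3 and Myl2 were lost without control mouse 1246 (-2.11 and -2.20), moderate mouse 1236 (-2.64 and -2.52) or moderate mouse 1331 (-2.57 and -2.50), and both went down to -3.76 and -3.88 without moderate mouse 1308. Both calls were also lost when edgeR was fitted to the control and moderate libraries only (adjusted p = 0.0512 and 0.0539). That fit called 0 of the 9 slow-fiber genes. Tnni1, slow troponin I, was at 60.4 ± 48.1 against 68.0 ± 19 CPM (SD, n = 3; log2FC 0.17), and it ran from -0.30 without control mouse 1349 to 0.95 without control mouse 1246, with a sign that turned against FLExD/+ mice (-0.57).

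Several embryonic and neonatal forms of the sarcomere were higher, as were regulators of fusion. Of 10 embryonic and neonatal sarcomere genes, 5 were called higher and 1 lower (median 0.80), and 6 had a log2FC above 0. The summed TMM-scaled level of the list overlapped between groups, at 2651, 2873 and 3295 CPM in the controls and 2830, 2703 and 2769 CPM in the moderate mice. Its share of all counts did not overlap, at 0.19%, 0.21% and 0.24% in the controls against 0.32%, 0.29% and 0.29% in the moderate mice. Myh3, embryonic myosin heavy chain, was at 10.2, 11.3 and 6.54 CPM against 328, 166 and 221 CPM (log2FC 4.68, SE 0.33, adjusted p = 2.5e-07). Myh8, the neonatal heavy chain, was at 6.32, 7.52 and 5.40 CPM against 211, 131 and 158 CPM (log2FC 4.70, SE 0.21, adjusted p = 2.86e-09). The lowest moderate mouse was more than an order of magnitude above the highest control for each gene. Tnnt2, the cardiac and embryonic troponin T, changed by 3.93, Myl4, the embryonic light chain, by 2.53, and Ckb, brain creatine kinase, by 1.30. The gene called lower was Mybph, myosin-binding protein H, at -1.33 (SE 0.27, adjusted p = 0.00143). Even so, Myh3 at 239 ± 82.4 CPM remained far below Myh4 at 33617 ± 4538 CPM in the moderate mice (SD, n = 3), without a correction for gene length.

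**Figure D3:**
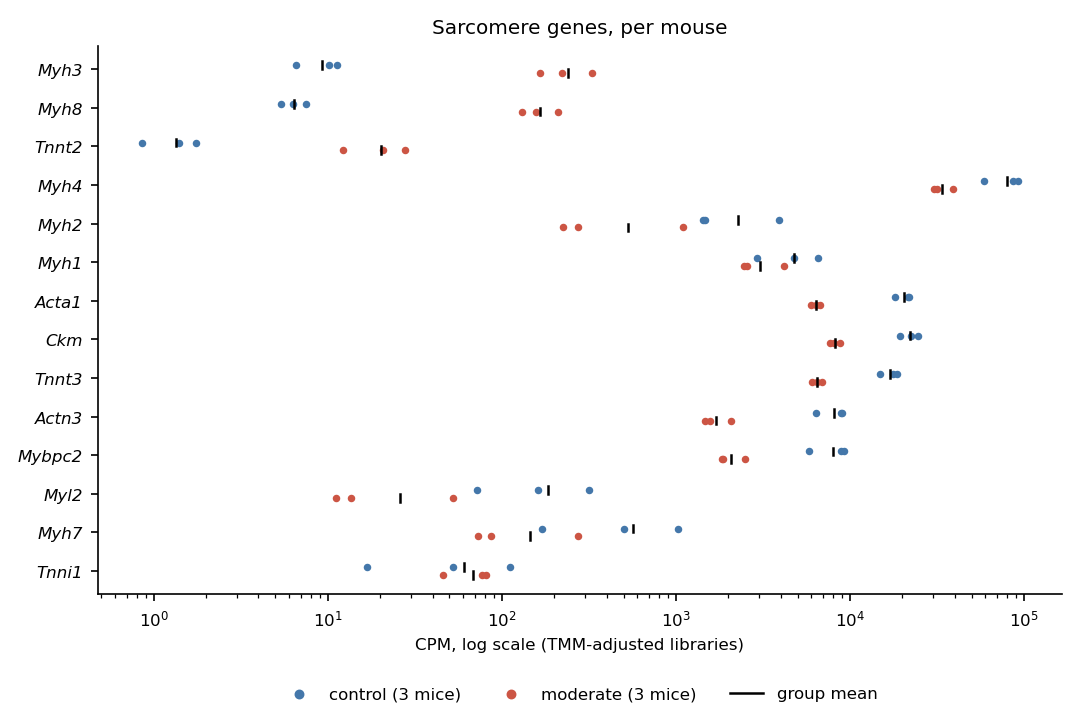
CPM of sarcomere genes on a log axis in each control and moderate mouse, with group means as black bars. Myh3 and Myh8 move up by more than an order of magnitude, Myh4, Acta1 and Actn3 move down, and Myh7, Myl2, Myh2 and Tnni1 are spread widely within each group.

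Among 11 myogenic regulators and fusion genes, 6 were called higher and 1 lower (median 1.53), against 9 and 0 under library size alone and 3 and 0 in all 9 pairs. Mymk (myomaker), which fuses myoblasts, was at 0.0518, 0.0482 and 0.190 CPM in the controls and at 7.76, 3.65 and 6.56 CPM in the moderate mice. Its log2FC was 5.87 (SE 0.55, adjusted p = 2.27e-06), and 6.76 without control mouse 1349. Mymx (myomixer), its partner, had 5 counts in the 3 controls together and was 25.98-fold higher (95% interval 10.9 to 80.9). Myog, the factor that drives terminal differentiation, was at 2.69, 3.18 and 3.84 CPM against 32.9, 21.9 and 25.6 CPM (log2FC 3.04, SE 0.20, adjusted p = 6.82e-08). These groups did not overlap. Markers of satellite cells were also higher, with Pax7 at 1.77 ± 0.417 against 5.13 ± 0.607 CPM (log2FC 1.53, SE 0.22, adjusted p = 5.55e-05), Myf5 at 1.68 and Cdh15 (M-cadherin) at 1.96. Myod1, the determination factor, was at 4.34 ± 1.09 against 5.51 ± 1.31 CPM and was not called (log2FC 0.35, adjusted p = 0.246), although it was under library size alone (0.96) and with limma on log2(TPM + 1) (0.66). Jam2, a junctional adhesion molecule, was called lower at -0.62, but was not called under library size alone (-0.02). Mustn1, a small nuclear protein of regenerating muscle and bone, changed by 2.10 (SE 0.17, adjusted p = 3.49e-07).

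Genes of the neuromuscular junction and of denervation formed a mixed group, with 9 of 12 called higher and 3 lower (median 1.71). Chrng, the fetal gamma subunit of the acetylcholine receptor, was at 0.0518, 0.0482 and 0 CPM against 9.59, 5.31 and 7.51 CPM, a ratio of 230.3 (95% interval from counting error 63.5 to 1906). Chrnd changed by 3.58 and Chrna1 by 2.58, which are the delta and alpha subunits. Chrne, the adult epsilon subunit that replaces gamma after birth, was called lower at -0.63 (SE 0.21, adjusted p = 0.0205). That call was lost without moderate mouse 1236 (-0.61) or 1308 (-0.49), under library size alone (-0.03) and against FLExD/+ mice (-0.42). Runx1, a transcription factor of denervated muscle, was at 3.11, 1.93 and 3.70 CPM against 27.6, 24.2 and 26.8 CPM (log2FC 3.17, SE 0.23, adjusted p = 2.39e-07). Ncam1, a neural adhesion molecule, changed by 2.06, and Musk, the receptor that organizes the junction, by 0.77. The other genes called lower were Ank1, an ankyrin, at -1.32 and Hdac4, a deacetylase, at -0.72. Hdac4 was not called under library size alone (-0.11), with limma on log2(TPM + 1) (-0.20) or against FLExD/+ mice (-0.49).

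Excitation-contraction coupling was lower in 11 of 15 genes and higher in 1 (median -1.24), against 8 and 2 under library size alone (median -0.63). Jph2, which joins the surface membrane to the sarcoplasmic reticulum, was at 499, 451 and 577 CPM against 108, 128 and 106 CPM (log2FC -2.16, SE 0.12, adjusted p = 9.85e-09). Cacna1s, the voltage sensor, changed by -1.74, Atp2a1, the fast calcium pump, by -1.59, Casq1, the calcium store protein, by -1.47, and Ryr1, the release channel, by -1.39. The exception was Sln, sarcolipin, a small inhibitor of the calcium pump. Sln was at 2.64, 1.30 and 0.569 CPM in the controls and at 129, 83.2 and 117 CPM in the moderate mice (log2FC 6.21, SE 0.44, adjusted p = 1.02e-06), and at 6.84 without control mouse 1127. The groups were separated by more than an order of magnitude, in the opposite direction to its pump.

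All 19 genes of glycolysis and glycogen use were called lower (median -1.02), and 8 of them were under library size alone. Pfkfb3, which makes the activator of phosphofructokinase, was at 222, 60.5 and 170 CPM against 22.5, 26.1 and 15.6 CPM (log2FC -2.82, SE 0.42, adjusted p = 0.000316). Pygm, muscle glycogen phosphorylase, changed by -1.76, Hk2, hexokinase, by -1.49, and Aldoa, aldolase, by -1.44. Pfkfb3 was the most variable of these among the controls, but no control reached the range of the moderate mice. For fatty acid oxidation and mitochondrial biogenesis, 7 of 15 were called lower and none higher (median -0.35), but library size alone turned the median to 0.26, with 1 lower and 4 higher. Cpt1b, which brings fatty acids into mitochondria, was at 264 ± 42.1 against 120 ± 11.4 CPM (SD, n = 3; log2FC -1.14, SE 0.21, adjusted p = 0.000518). Hadhb changed by -1.05 and Acadvl by -0.91, both enzymes of beta-oxidation, and Ppara, a nuclear receptor for fatty acids, by -1.52. Ppara was at 4.51, 12.4 and 3.93 CPM in the controls, and without control mouse 1246 its change was -0.83. Hadhb (-0.44), Acadvl (-0.30) and Ppara (-0.92) were not called under library size alone. Mitochondrial ribosomal RNA, mt-Rnr2, had the highest level of any gene, at 314190 ± 49545 against 197890 ± 12351 CPM (log2FC -0.67, SE 0.23, adjusted p = 0.026). These are TMM-scaled levels and not shares of the library. The gene was not called when any one mouse but control 1349 was left out (-0.58 to -0.72), and under library size alone it was at -0.06.

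Myostatin and its receptor were lower, and follistatin was higher. Mstn, which limits muscle growth, was at 57.0, 45.5 and 89.0 CPM against 5.49, 7.10 and 10.1 CPM (log2FC -3.08, SE 0.31, adjusted p = 1.25e-05). Its receptor Acvr2b was at 7.93, 6.79 and 8.01 CPM against 1.77, 2.52 and 1.89 CPM (log2FC -1.88, SE 0.17, adjusted p = 7.38e-07). No moderate mouse reached the controls for either. Fst, follistatin, which binds myostatin, changed by 0.80 and its relative Fstl1 by 1.55. Of the 12 genes of this list, 5 were called lower and 2 higher, with a median of -0.19 that library size alone turned to 0.41. Among 10 ligases of muscle atrophy and FoxO factors, 3 were lower, Fbxo31 at -1.46, Foxo4 at -1.39 and Fbxo40 at -0.90, and 1 was higher, Cblb at 1.02 (median -0.27, and 0.34 under library size alone, which left Fbxo40 at -0.30 without a call). Fbxo32 (atrogin-1) was at 126, 58.7 and 64.8 CPM against 45.7, 38.5 and 54.1 CPM and was not called (log2FC -0.85, adjusted p = 0.0622), though it was without control mouse 1246 (-1.08) or 1349 (-1.03).

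**Figure D4:**
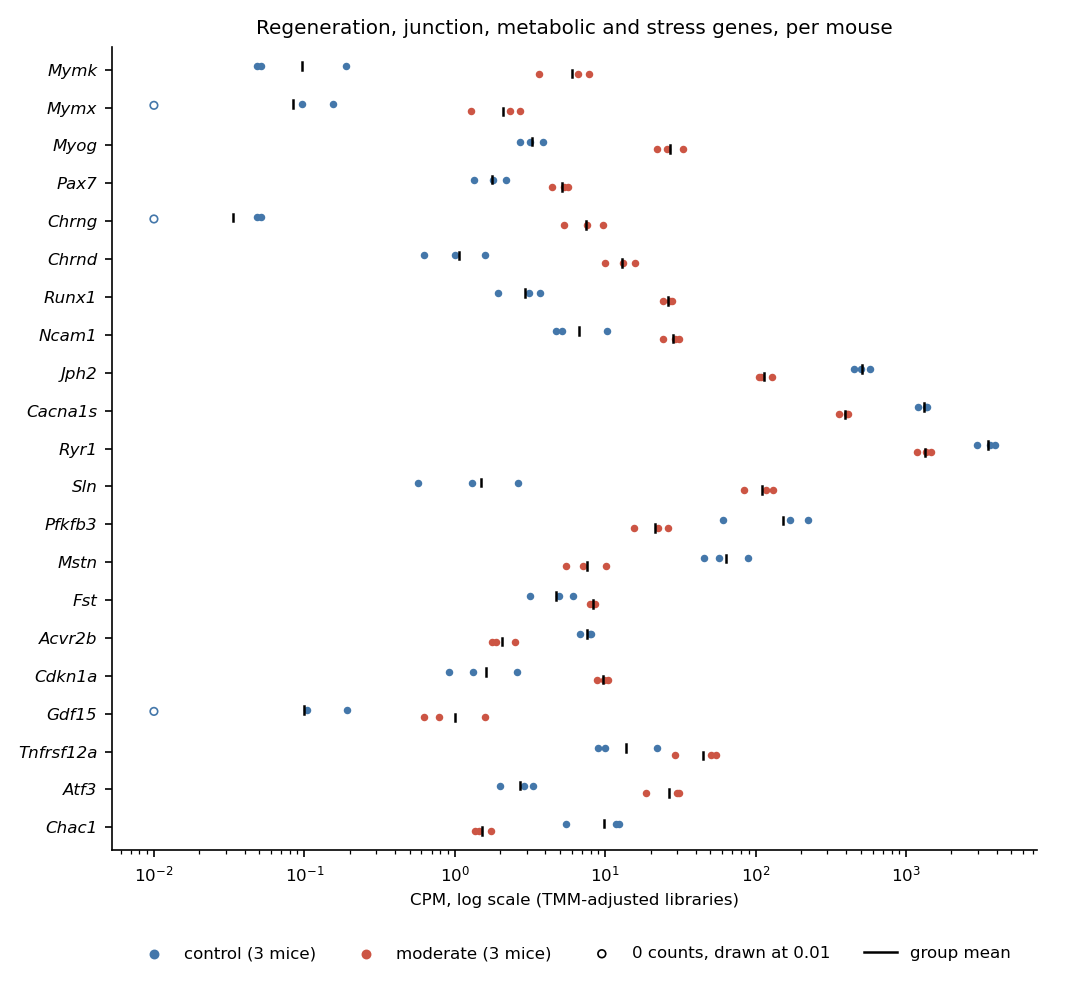
CPM of genes of regeneration, the neuromuscular junction, calcium handling, growth control and stress, on a log axis, in each control and moderate mouse, with group means as black bars and 0 counts as open circles at 0.01. Sln rises from a mean of 1.5 to 110 CPM while Jph2, Cacna1s and Ryr1 fall.

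Of 15 p53 targets, 10 were called higher and 1 lower (median 0.73), and 5 and 1 in all 9 pairs. Under library size alone they were 13 and 0 (median 1.34). Cdkn1a, the cell cycle inhibitor p21, was at 2.59, 0.915 and 1.33 CPM against 9.87, 8.79 and 10.5 CPM (log2FC 2.60, SE 0.25, adjusted p = 1.3e-06). Gdf15, a secreted stress factor, was at 0.104, 0.193 and 0 CPM against 0.789, 0.621 and 1.6 CPM (log2FC 3.30, SE 0.64, adjusted p = 0.00058; 4.20 without control mouse 1246). Eda2r, the ectodysplasin A2 receptor, changed by 1.57 (SE 0.21, adjusted p = 5.16e-05). Pmaip1 (Noxa) was at 0.273 ± 0.0278 CPM in the moderate mice, with 2 counts in the 3 controls together (ratio 8.37, 95% interval 2.09 to 72.9). Among 18 death receptors, BCL2 family members and caspases, 12 were called higher and none lower (median 1.02), of which all 9 pairs called 2. Library size alone called 17 of the 18 higher (median 1.62). Bid changed by 1.98, Ripk3 by 1.86 and Fas by 1.53, all parts of the cell death machinery. Tnfrsf12a, the TWEAK receptor, was at 9.01, 9.92 and 22.1 CPM against 50.4, 54.8 and 28.9 CPM (log2FC 1.70, SE 0.37, adjusted p = 0.00319). Control mouse 1349 and moderate mouse 1331 lay nearest to each other for this gene.

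Stress responses were mixed with TMM factors. Of 15 genes of the unfolded protein and integrated stress responses, 4 were called higher and 3 lower (median 0.28), but library size alone gave 11 and 1 (median 0.88). Atf3, a stress-induced transcription factor, was at 3.32, 2.89 and 1.99 CPM against 29.8, 30.8 and 18.6 CPM (log2FC 3.27, SE 0.28, adjusted p = 1.07e-06). Asns, asparagine synthetase, changed by 1.59 and Hspa5, the BiP chaperone, by 0.75. Chac1, a glutathione-degrading enzyme, went the other way, at 12.3, 11.8 and 5.45 CPM against 1.36, 1.45 and 1.73 CPM (log2FC -2.70, SE 0.26, adjusted p = 1.72e-06). Atf4, the central factor of the integrated response, was called lower at -0.75 and Herpud1 at -0.96, and neither was called under library size alone (-0.14 and -0.36). Of 15 genes of oxidative stress defence, 7 were higher and 3 lower (median 0.35), against 8 and 0 under library size alone. The metallothioneins Mt2 and Mt1, which bind metals, rose from 1.79 ± 0.261 to 47.4 ± 22.1 CPM and from 6.82 ± 1.72 to 61.7 ± 22.1 CPM (log2FC 4.72 and 3.18). Nqo1 changed by 1.92 and Hmox1 by 1.74, both targets of NRF2, while Sod2, the mitochondrial superoxide dismutase, changed by -1.10 and Gpx3 by -0.89, both without a call under library size alone (-0.49 and -0.29).

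All 18 mitotic genes were called higher, with a median of 4.22, or 3.83 with the 5 genes that were at or under 3 counts in every control set at their bounds. Mki67, the Ki-67 antigen, was at 0.570, 0.819 and 1.66 CPM against 37.0, 34.4 and 31.6 CPM (log2FC 5.06, SE 0.24, adjusted p = 6.37e-09). Top2a, topoisomerase II, was at 0.570, 0.819 and 1.09 CPM against 33.1, 26.1 and 26.4 CPM (log2FC 5.09, SE 0.17, adjusted p = 1.14e-10). The moderate mice were close together for both genes, and no control came near them. Melk, with 0 counts in all controls, was at least 12-fold higher. Ccnb1 (cyclin B1), Cdk1 and Bub1 had 3, 2 and 3 counts in the 3 controls together, with ratios of 85.5 (95% interval 29.0 to 416), 119 (32.7 to 985) and 41.3 (13.9 to 202). Of 18 genes of DNA replication and the G1/S step, 15 were higher and 1 lower (median 1.46; 9 and 0 in all 9 pairs), with Ccna2 (cyclin A2) at 4.39, Rrm2, which makes deoxynucleotides, at 3.69 and Cdc6, a replication licensing factor, at 2.91. Ccne1 (cyclin E1), with 6 counts in the controls, was 20.98-fold higher (95% interval 9.46 to 57.9), while Ccne2 was called lower at -0.53, a direction that turned to 0.08 under library size alone and 0.13 with limma on log2(TPM + 1). The Ccne2 call was lost without control mouse 1127 (-0.47) or moderate mouse 1308 (-0.42).

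All 17 macrophage markers were called higher (median 2.89), and their share of counts was 0.00898% ± 0.00104 in the controls and 0.0784% ± 0.0129 in the moderate mice (SD, n = 3). Spp1 (osteopontin) was at 0.674, 1.2 and 1.61 CPM against 41.1, 40.7 and 34.7 CPM (log2FC 5.04, SE 0.36, adjusted p = 6.72e-07). Trem2, a lipid-sensing receptor, was at 0.207, 0.337 and 0.332 CPM against 10.9, 8.17 and 9.14 CPM (log2FC 4.98, SE 0.23, adjusted p = 2.49e-09). The moderate mice were close to each other and far from all controls. Cd68, a lysosomal marker, changed by 4.18 and Lgals3 (galectin 3) by 4.04. Markers of other leukocytes were scarce. Of 16 T and B lymphocyte markers 7 could be tested and 2 were higher, with Cd22, a lectin of B cells, at 0.211 ± 0.105 against 1.34 ± 0.223 CPM, and of 10 neutrophil markers 5 could be tested and 2 were higher. Cd22 was not called with limma on log2(TPM + 1) (0.36). Retnlg, a resistin-like protein of neutrophils, was at 0.311, 0.145 and 0.0474 CPM against 2.71, 1.07 and 0.587 CPM (log2FC 3.12, SE 0.64, adjusted p = 0.000998; 2.30 without moderate mouse 1236). Their counts were too few to describe these cells further.

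Chemokines were called higher in 13 of 15 tested genes and lower in 1, with a median of 3.33, or 2.24 with the 5 genes at or under 3 counts in the controls set at their bounds, and in all 9 pairs 5 were higher. Ccl8, which attracts monocytes, was at 0.259, 0.0964 and 0.806 CPM against 14.3, 7.17 and 8.52 CPM (log2FC 4.66, SE 0.41, adjusted p = 1.34e-06; 5.77 without control mouse 1349). Ccl2, the main monocyte chemokine, changed by 3.88 and Ccl7 by 4.0, which became 5.07 and 4.91 without control mouse 1246. Cxcl12, which holds stem cells in their niche, was the gene called lower, at -0.54, but at 0.07 under library size alone and 0.08 with limma on log2(TPM + 1). Its call was also lost without moderate mouse 1236 (-0.48) or 1331 (-0.45). Of 17 interferon-stimulated genes, 15 were higher and none lower (median 0.94), but all 9 pairs called 0 of them, and without moderate mouse 1236 the count was 12 and the median 0.66. Oas1a and Oas2, which sense viral RNA, changed by 2.70 and 1.6. Irf7, a master regulator of the response, was at 12.1, 5.14 and 3.79 CPM in the moderate mice, against 2.44, 2.70 and 1.99 CPM in the controls, so that mouse 1236 stood apart (log2FC 1.57, and 0.91 without it). Of 13 complement genes, 10 were higher and 1 lower (median 0.78). The receptors C3ar1 and C5ar1 changed by 3.29 and 2.71 and Cfb (factor B) by 2.33. Cd55, which protects cells from complement, was called lower at -0.60, but was at 0.01 under library size alone.

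**Figure D5:**
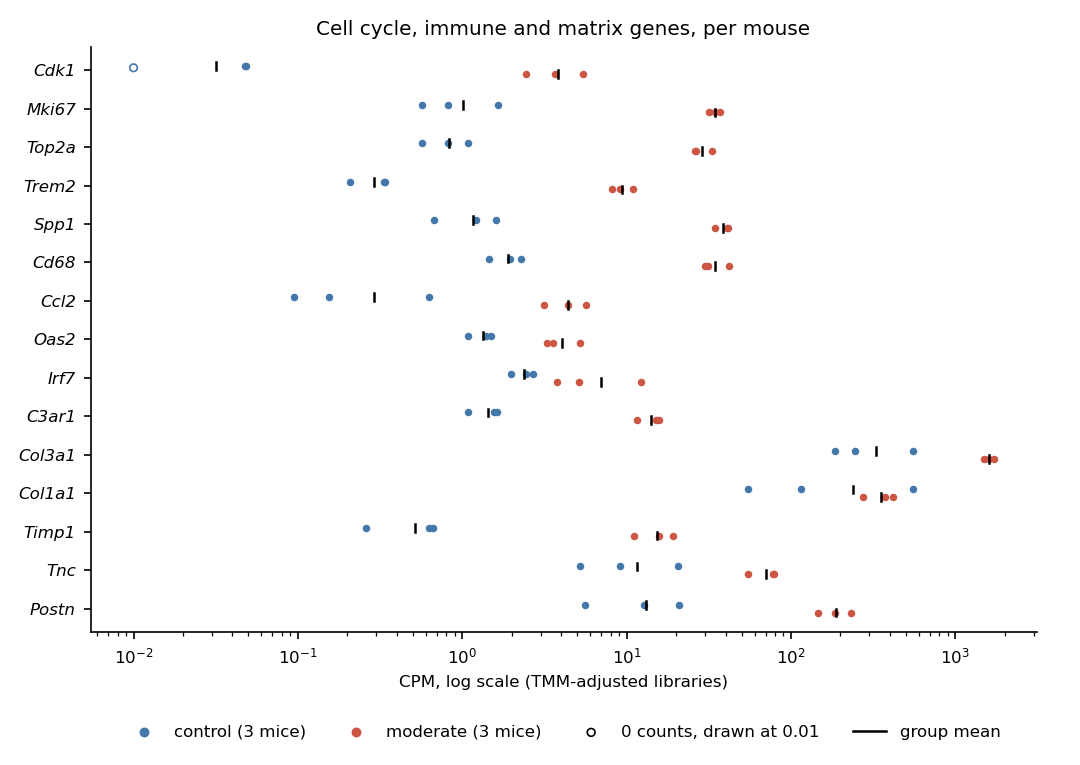
CPM of cell cycle, immune and matrix genes on a log axis in each control and moderate mouse, with group means as black bars and 0 counts as open circles at 0.01. Mki67, Top2a, Trem2 and Spp1 are separated by more than an order of magnitude, while Col1a1 overlaps, with control mouse 1349 at 549 CPM.

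Matrix genes were higher, and control mouse 1349 stood apart from the other controls in several of them. Of 15 collagens, 10 were called higher and none lower (median 0.92), which became all 15 (median 1.67) without control mouse 1349 and 6 in all 9 pairs, and their share of counts was 0.117% ± 0.0739 in the controls and 0.459% ± 0.0304 in the moderate mice (SD, n = 3). Col3a1, collagen III of early scar, was at 185, 245 and 554 CPM against 1708, 1592 and 1484 CPM (log2FC 2.28, SE 0.31, adjusted p = 4.4e-05). Control mouse 1349 was the highest control for Col3a1, for Col5a2 (log2FC 2.15) and for Col6a3 (1.5), yet below all moderate mice. For Col1a1, collagen I, it was above them, at 54.6, 114 and 549 CPM against 273, 419 and 371 CPM (log2FC 0.57, SE 0.74, adjusted p = 0.554), and without this mouse Col1a1 was called at 2.04. Of 19 matrix proteins and remodelling enzymes, 15 were higher and none lower (median 1.51). Timp1, an inhibitor of metalloproteases, was at 0.259, 0.626 and 0.664 CPM against 19.2, 15.8 and 11.1 CPM (log2FC 4.87, SE 0.32, adjusted p = 7.76e-08). Postn (periostin) changed by 3.84, Tnc (tenascin C), which is made in injured tissue, by 2.60 (3.27 without control mouse 1349), and the protease Mmp3 by 2.37. Of 13 genes of TGF-beta signalling, 7 were higher and 3 lower (median 0.64). Tgfb1 itself changed by 2.08, and Ltbp2, which binds the latent complex in matrix, by 2.50. Smad3, the signal carrier, was lower, at 60.1, 71.1 and 93.7 CPM against 23.0, 23.1 and 25.6 CPM (log2FC -1.65, SE 0.16, adjusted p = 2.04e-06), as were Tgfb3 at -0.72 and Tgfb2 at -0.61. The call of Tgfb2 was lost without moderate mouse 1236 (-0.50) and against FLExD/+ mice (-0.47). Under library size alone neither Tgfb2 (-0.01) nor Tgfb3 (-0.12) was called.

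Markers of the other cell types of muscle gave a mixed picture. Of 10 markers of fibro-adipogenic progenitors, the connective tissue cells of muscle, 4 were higher and none lower (median 0.37), led by Mfap5, a microfibril protein, at 1.67. The count was 2 without control mouse 1127 or 1246 or moderate mouse 1236, and 9 under library size alone (median 0.98). Of 12 adipocyte markers, 4 were lower and 1, Pparg, was higher at 0.81 (median -0.98), with Scd1, a fatty acid desaturase, at -1.47 and Lpl, lipoprotein lipase, at -1.25. Library size alone called none of the adipocyte markers lower, with Scd1 at -0.87 and Lpl at -0.64, and without control mouse 1127 or moderate mouse 1236 the count was 2. The Pparg call was lost without control mouse 1246 (0.74) or 1349 (0.72) or moderate mouse 1308 (0.65). Of 12 endothelial markers, 6 were lower and none higher (median -0.49), but the median was 0.12 under library size alone, with 2 higher and 1 lower. Kdr, the VEGF receptor of endothelium, was at 36, 37.8 and 40.5 CPM against 17.1, 21.9 and 13.8 CPM (log2FC -1.11, SE 0.22, adjusted p = 0.00108), and its ligand Vegfa, which muscle fibers make, changed by -0.96 (-0.35 and not called under library size alone). Markers of smooth muscle and pericytes split, with 2 of 10 higher and 4 lower (median -0.24, and 0.37 under library size alone). The contractile genes Myh11 (0.99) and Acta2 (0.89) were higher, and the pericyte genes Kcnj8 (-1.28), Rgs5 (-0.85) and Abcc9 (-0.82) lower, of which Rgs5 (-0.24) and Abcc9 (-0.22) were not called under library size alone. Of 8 tendon markers, Thbs4 was higher at 1.4 and Scx lower at -0.86 (-0.25 and not called under library size alone). Of 8 Schwann cell and nerve markers only Sox10 was called, lower at -0.89 (adjusted p = 0.0485), and the call was lost without control mouse 1246 (-0.81) or 1349 (-0.86) or moderate mouse 1236 (-0.78) or 1331 (-0.87), and under library size alone (-0.29). Of 6 red blood cell markers, 2 were lower, among them Alas2, an enzyme of heme synthesis, at -1.10. Under library size alone none was called, with Alas2 at -0.49, and without moderate mouse 1308 the count was 5.

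RNA decay and splicing factors had medians near 0 with TMM factors, which the scaling moved. Of 14 factors of nonsense-mediated decay, which DUX4 inhibits in human muscle cells, 1 was higher and 1 lower (median 0.04), but library size alone called 10 higher and none lower (median 0.64) and limma on log2(TPM + 1) 6 higher. Upf1, the core helicase, was at 20.2, 19.8 and 20.7 CPM against 28.5, 33.7 and 29.7 CPM (log2FC 0.60, SE 0.08, adjusted p = 2.6e-05). Upf2, its partner, was at 31.5, 28.2 and 33.7 CPM against 15.6, 16.9 and 17.1 CPM (log2FC -0.91, SE 0.09, adjusted p = 9.03e-07), although at -0.31 and not called under library size alone. The groups did not overlap for either. Of 14 muscle splicing regulators, 3 were lower, Mbnl1 at -1.35, Rbfox1 at -1.22 and Rbm24 at -0.69 (-0.09 and not called under library size alone), and 2 were higher, Ptbp1 at 0.74 and Mbnl3 at 0.84, the last of which was not called without moderate mouse 1236 (0.74). Their median of -0.02 became 0.58 under library size alone. In the dystrophin-glycoprotein complex and its sarcolemmal partners, 5 of 15 were lower and 4 higher (median -0.11, and 0.50 under library size alone). Dmd, dystrophin, was at 679, 586 and 677 CPM against 289, 300 and 316 CPM (log2FC -1.10, SE 0.13, adjusted p = 1.03e-05), with Dtna at -0.97, Sgca at -0.81 and Cav3 at -0.67. None of these 4 was called under library size alone, at -0.50, -0.37, -0.21 and -0.06. Sntb1, a syntrophin, was higher at 2.54, Anxa2, a membrane repair protein, at 1.55, and Dag1, dystroglycan, at 0.80. S100a6, a calcium-binding partner of annexins, changed by 1.13 (SE 0.16, adjusted p = 5.7e-05).

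The moderate mice also differed among themselves. Fos, an immediate early gene, was at 17.5, 37.6 and 6.66 CPM in mice 1236, 1308 and 1331, against 3.32, 2.99 and 3.79 CPM in the controls (log2FC 2.61, SE 0.58, adjusted p = 0.0041, and 1.84 without mouse 1308). Mouse 1236 was the highest of the 3 for Wfdc3, Myh3, Mymk, Chrng, Cd68, Oas1a and Irf7. It did not lead for every gene. The other DUX4 target, Trim36, was lowest in mouse 1236, and Trim36, Gdf15 and Ccng1 were highest in mouse 1331. Mouse 1308 was the highest for Myh7, Myl2 and Myl3 and the lowest for Myh3, Mymk, Tnnt2 and Chrng.

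Set against the severe model, which shares these moderate mice as its reference, 2943 genes (17.6%) were higher and 3139 (18.8%) lower in the severe mice. Library size alone gave 9648 and 823, with a median log2FC over all genes of 0.71 in place of 0.02. With TMM factors, all 16 fast-fiber genes were lower in the severe than in the moderate mice, 18 of 19 glycolytic and 14 of 15 excitation-contraction genes were lower, and all 17 macrophage and 17 of 18 mitotic genes were higher. Levels of Myh3 were 9.32, 239 and 1037 CPM in control, moderate and severe mice, those of Myh4 were 79313, 33617 and 6104 CPM, and those of Trem2 were 0.292, 9.41 and 31.1 CPM, so that the moderate mean lay between the other two in each. Of 12 genes of receptor and denervation, 6 were higher and 4 lower in the severe mice.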

How the data were processed

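The authors trimmed single-end reads of each muscle, mapped them with RSEM 1.2.4, which called Bowtie, to a merged mm10 annotation, and mapped the remainder with TopHat2 2.0.8b, as the paper and the submitters' processing notes list. They deposited expected counts for 37748 genes, without normalization, and a table of TPM values. Expected counts were rounded and tested with edgeR 4.0.16 in R 4.3.3 (filterByExpr, TMM factors, robust quasi-likelihood test), in 1 fit of the 4 groups of 3 mice, with Benjamini-Hochberg adjustment over 16679 genes. The deposited TPM entered only limma 3.58.1, on log2(TPM + 1). Depth was 23796902 to 29136403 counts per mouse. The spread behind each p-value was estimated over all 4 groups of the fit, not over the control and moderate mice alone. Because no source says that the animals of a group are of separate litters, p-values measure only the spread between the mice of this series. Where every control had 0 counts, the fold was taken against 3 counts per library and is a lower bound. With few control counts, a ratio of summed levels is given with an exact conditional 95% interval. Mymk, Gdf15 and Ccl7 are described above by the fitted log2FC, although they had 6, 6 and 9 counts in the controls together. Their ratios were 61.7 (28.2 to 169), 10.3 (4.54 to 28.7) and 16.5 (8.54 to 36.6). The bounds and the intervals cover counting error only. RSEM divides reads that map to several genes, so members of gene families may share reads.

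The members and the gene lists were chosen with earlier results of these data known. Genes were named if they were among the 4 largest changes of a list or went against it, among the 10 higher and 10 lower genes with the largest change, among the 10 that gained or lost the most CPM, among the 6 most variable between moderate mice, or named by the study. Some of these are not reported here. Ckb, Myh1, Myh2, Myh7, Tnni1, Myf5, Myod1, Chrna1, Ncam1, Musk, Casq1, Ryr1, Fas, Hspa5, Mki67, Top2a, Col1a1, Fbxo32, Abcc9, Rbm24, Dmd, Dtna, Sgca and Cav3 were added after their values were seen. Symbols were matched through GENCODE M21, and promoters came from RefSeq. The edgeR test was checked on simulated counts with few changed genes, balanced between higher and lower. That setting does not cover a difference in library composition such as the one between these groups. Alternatives were DESeq2 1.42.0, other scalings, filters, thresholds and control groups, and each mouse left out.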

Additional observations from a re-analysis of the deposited data

Results flagged for a closer look

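The change between control and moderate muscle differed from that between control and severe muscle for the genes below, by the edgeR test of severe against moderate mice. The moderate mice enter both comparisons, and these genes were picked from those described above, so the values are descriptive. In this test the median log2FC of all genes was 0.02 with TMM factors and 0.71 under library size alone.

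Some genes raised in the moderate mice were lower in the severe mice. Among genes near 0 in the controls, severe minus moderate log2FC was -1.44 for 4921504E06Rik, -1.20 for Cyp2j12, -2.30 for Pth, -1.33 for Ctsj, -2.32 for Klrb1f, -0.93 for Aadac, -1.14 for Pls1 and -1.52 for Anxa10. Cck (0.02) and Iltifb (0.63) of the same set were not called. Pth, for example, was at 7.85 ± 1.35 CPM in moderate muscle, and severe muscle had 1.59 ± 0.835 CPM (SD, n = 3). Among genes that gained the most CPM, the values were -1.59 for Ccng1, -1.49 for Sord, -1.78 for Exoc4, -0.96 for Aqp4 and -0.68 for Trak2, the last of which was at 0.00 under library size alone and with limma on log2(TPM + 1). Ccng1 was at 1172 CPM in the controls, 3188 ± 366 CPM in moderate muscle and 1056 ± 354 CPM in severe muscle. Further values were -0.95 for Eda2r, -1.18 for Nqo1 and -2.16 for Myh11, which at 15.1 ± 4.32 CPM in the severe mice was called below the control level as well. They were -0.66 for Pparg and -0.51 for Dag1, both above 0 under library size alone.

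Some genes lowered in the moderate mice were higher in the severe mice, at 1.76 for Fgfbp1, 0.68 for Ccne2, 0.55 for Tgfb3 and 1.61 for Scx, a transcription factor of tendon. Scx was at 5.89 CPM in the controls, 3.25 ± 0.784 CPM in moderate muscle and 9.92 ± 1.42 CPM in severe muscle, and was called above the controls in the severe model (log2FC 0.75). Under library size alone, Cyp2j12 was at -0.51, Ctsj at -0.65, Aadac at -0.25, Pls1 at -0.45, Anxa10 at -0.85, Aqp4 at -0.28, Eda2r at -0.26 and Nqo1 at -0.49, and these were no longer called.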

How the results depend on the processing

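In the moderate mice, 4072 genes were called higher and 2830 lower. Library size alone gave 8764 and 752, limma on log2(TPM + 1) 747 lower, a log2FC of at least 1 2648 and 1172, and a fold of 1.4 with a Bayes factor of 10 in all 9 pairs 1333 and 1051. Library size without the 20 most abundant genes, chosen after seeing the data, gave 1404 lower. Leaving out 1 mouse at a time gave 3650 to 3979 higher and 2552 to 3000 lower. The other alternatives kept both counts within 1.5 times. For severe against moderate, 2943 and 3139 became 9648 and 823 under library size alone and 8050 and 642 with limma. The number of genes called lower depended on the scaling, and the cause of the difference in library composition was not tested. Of 190 genes followed, all kept direction and call with median-of-ratios factors, 187 with DESeq2, 155 under library size alone and 153 with limma on log2(TPM + 1). Signs turned for Ccne2 (0.078 and 0.126 with limma), Cxcl12 (0.067 and 0.082) and Cd55 (0.007) under library size alone, and against FLExD/+ mice for Esr1 (1.80), Gt(ROSA)26Sor (-0.35) and Tnni1 (-0.57, and -0.30 to 0.946 with 1 mouse left out). In the severe against moderate test they turned for Trak2 (0.005 under library size alone and 0.004 with limma), Pparg (0.029 and 0.04) and Dag1 (0.19 and 0.20). No paired analysis was possible because the groups share no replicate numbers. Depth limits genes near 3 counts per library.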
